A study of Mus musculus with 12 samples.

Results

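The mRNA of 6 subunits of the phagocyte NADPH oxidase was measured in cultured mouse neutrophils: Cybb, Cyba, Ncf1, Ncf4, Rac1 and Rac2. They were taken by name from the deposited count table, in which 6 of 29737 genes are these subunits, and all 6 were among the 16761 genes with enough counts to be tested. The oxidase is the enzyme of the respiratory burst, which passes electrons from NADPH across a membrane to oxygen and so makes superoxide, the parent of the oxidants with which neutrophils kill microbes. In a resting cell its parts are kept apart, with a flavocytochrome in the membrane and regulatory proteins in the cytosol that join it when the cell is stimulated. Loss of the flavocytochrome or of its cytosolic partners causes chronic granulomatous disease, in which phagocytes take up microbes but fail to kill many of them.

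Neutrophils came from the bone marrow of wild-type C57BL/6 mice, which the methods describe as female and 4 to 6 weeks old, and were cultured for 24 h in RPMI medium with fetal bovine serum. There were 4 groups of 3 samples: PBS as the control, TCA (taurocholic acid) at 200 μM, GCA (glycocholic acid) at 200 μM, and Tβ-MCA (tauro-β-muricholic acid), a taurine conjugate of a bile acid characteristic of rodents. For Tβ-MCA the labels give 10 μM and the methods give 200 μM, so its values are shown beside those of TCA and GCA without a comparison between them. The labels call the cells Ly6G+ and the methods name an enrichment kit. No source states whether the samples of a group came from separate animals. The p-values set each difference against a spread estimated within groups over all 12 samples, and that spread may be technical. Total counts per sample lay between 32757389 and 41375925, and at this depth the 3 counts taken as the limit of detection correspond to 0.0725 to 0.0916 CPM before TMM scaling, a limit that covers counting error only. All other CPM values are counts scaled to a common library size after TMM normalization. The neutrophil markers were the most abundant markers examined, with a summed level of 30226 to 45562 CPM over 12 genes, of which Ly6g itself was at 7.54 to 21.4 CPM. Monocyte and macrophage markers summed to 574 to 1719 CPM over 12 genes, eosinophil markers to 53.2 to 237 CPM over 4, basophil and mast cell markers to 16.2 to 36.8 CPM over 4, B cell markers to 3.70 to 12.5 CPM over 5, T and NK cell markers to at most 2.38 CPM over 4 listed genes, and erythroid markers to at most 2.71 CPM over 4. A gene was called changed when edgeR's quasi-likelihood test gave a Benjamini-Hochberg adjusted p under 0.05 over all genes tested.

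With Tβ-MCA, 1 of the 6 subunits was called, namely Ncf1, which was lower, against a background of 7.62% of all genes called in that comparison and 3.18% called lower. Cybb was lower by an estimate that did not pass the adjustment, and the other 4 subunits differed from PBS by less than their error. With TCA and with GCA none of the 6 subunits was called, and the background was 0% in both comparisons. At an unadjusted p under 0.05, 2 subunits passed with Tβ-MCA, where 24.9% of all genes did, and none passed with TCA or GCA, where 3.26% and 3.53% of all genes did. The 3 comparisons share the same PBS samples and so are not independent of each other.

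**Figure D1:**
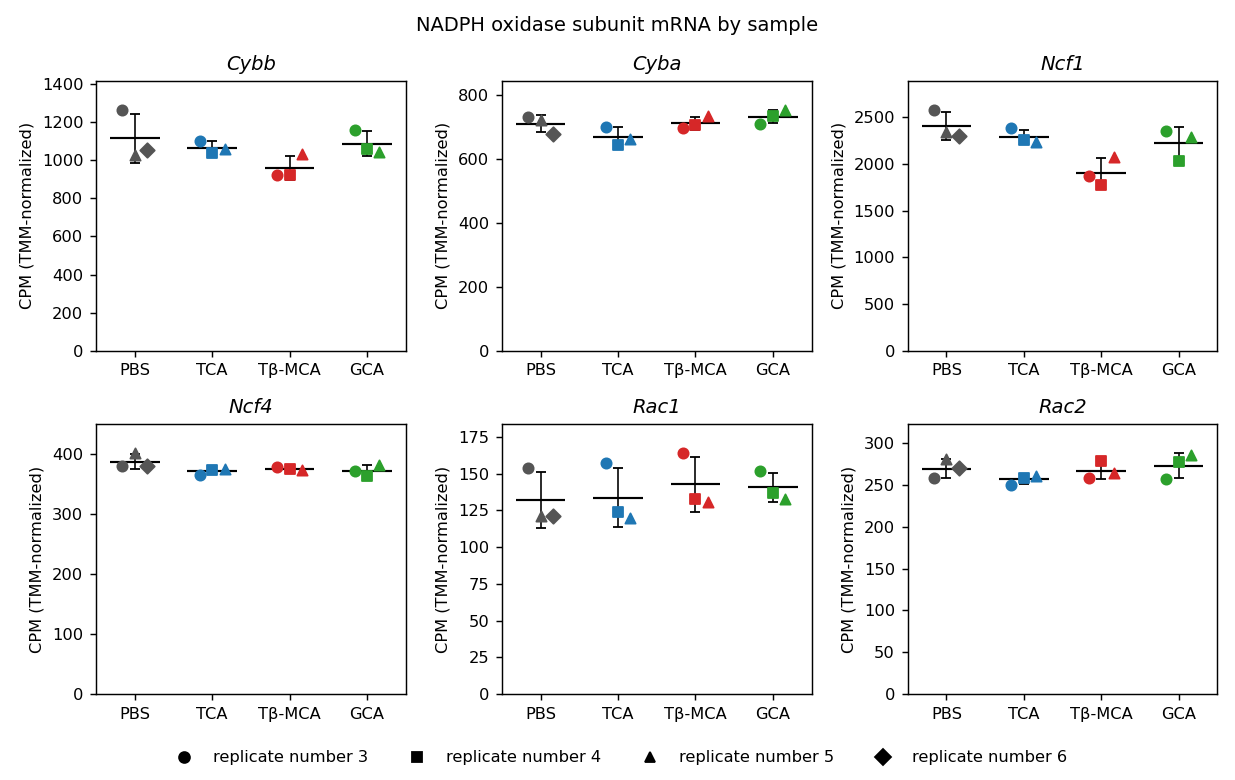
Level of each subunit in CPM after TMM normalization (linear axis from 0) in all 12 samples, by treatment, with the marker shape giving the replicate number in the sample label; horizontal lines are group means and error bars are SD (n = 3). The 3 Tβ-MCA samples of Ncf1 lie at 1771 to 2079 CPM, below the 3 PBS samples at 2295 to 2579 CPM, and the number 3 samples of Rac1 stand above the others in every group.

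The upstream sequences of Cybb, Cyba and Ncf1 are shown, the 3 subunits for which a RefSeq sequence was matched. These are the 250 bases before the transcription start in RefSeq (GRCm38.p6), 5′ to 3′ on the strand of the gene. Capitals mark CCAAT, the core of the CCAAT box, and GAAA repeated after a gap of any 2 bases, a form of the interferon-stimulated response element, on either strand.
Cybb: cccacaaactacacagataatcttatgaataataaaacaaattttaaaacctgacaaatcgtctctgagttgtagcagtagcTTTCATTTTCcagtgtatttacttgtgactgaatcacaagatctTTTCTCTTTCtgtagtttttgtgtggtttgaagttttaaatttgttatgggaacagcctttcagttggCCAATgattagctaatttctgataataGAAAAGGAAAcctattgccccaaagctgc
Cyba: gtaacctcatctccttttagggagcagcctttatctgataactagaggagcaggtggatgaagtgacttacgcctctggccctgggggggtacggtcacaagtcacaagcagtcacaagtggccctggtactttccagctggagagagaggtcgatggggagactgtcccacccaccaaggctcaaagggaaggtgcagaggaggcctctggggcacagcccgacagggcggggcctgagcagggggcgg
Ncf1: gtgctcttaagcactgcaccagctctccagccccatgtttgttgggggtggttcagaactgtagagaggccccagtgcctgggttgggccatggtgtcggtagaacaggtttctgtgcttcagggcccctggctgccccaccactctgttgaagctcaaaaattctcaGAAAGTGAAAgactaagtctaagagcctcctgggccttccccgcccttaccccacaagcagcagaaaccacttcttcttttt
The windows are chrX:9469325-9469574 for Cybb, chr8:122432941-122433190 for Cyba and chr5:134229626-134229875 for Ncf1, all on the minus strand. The GC content was 34% for Cybb, 60% for Cyba and 54.4% for Ncf1. The window of Cybb held CCAAT at 56 to 52 bases before the start, and 33.8% of the 32851 windows of this length in the table hold that motif. It also held the repeat of GAAA 3 times, at 29 to 20 bases as printed and at 168 to 159 and 124 to 115 bases on the reverse complement, and the window of Ncf1 held it once, at 82 to 73 bases as printed, whereas 2.98% of all windows hold it at least once. GAGGAA, a core bound by the ETS factor PU.1, is in 23.3% of all windows and in none of the 3 shown. The window of Cyba held none of the 3 motifs. A match of letters is no evidence of a bound site. The deposited Cybb gene reaches to chrX:9487771, beyond the RefSeq start used for this window. RefSeq sequences were matched for 3 of the 6 subunits, and Ncf4, Rac1 and Rac2 had no match.

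Cybb encodes gp91phox (NOX2), the subunit of the flavocytochrome that carries the electrons. The deposited gene (GRCm38) is on chromosome X from 9435252 to 9487771 on the minus strand with 5808 bp of merged exons, and no other gene overlaps it. Cybb was at 1264, 1027 and 1052 CPM with PBS, at 1102, 1038 and 1060 CPM with TCA, at 924, 923 and 1034 CPM with Tβ-MCA and at 1161, 1058 and 1043 CPM with GCA. Tβ-MCA replicate 5 lay inside the range of PBS, and the 2 other Tβ-MCA samples lay below it, so the groups overlapped. The log2 fold change with Tβ-MCA was -0.21 (SE 0.081, 95% interval -0.39 to -0.04), with an adjusted p = 0.114 in edgeR's quasi-likelihood test (0.0183 before adjustment). This value depended on single libraries. It was -0.11 (adjusted p = 0.395) without PBS replicate 3 and -0.27 (adjusted p = 0.0394) without Tβ-MCA replicate 5. With TCA the change was -0.06 (SE 0.081) and with GCA -0.04 (SE 0.081), and all 3 samples of each lay within the range of the PBS samples.

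Cyba encodes p22phox, the small subunit that pairs with gp91phox and anchors the cytosolic proteins. It lies on chromosome 8 from 122424776 to 122432930 on the minus strand with 1039 bp of exons, inside Gm20388 on the other strand but without a shared exon base. Cyba was at 731, 723 and 680 CPM with PBS, at 702, 645 and 663 CPM with TCA, at 697, 706 and 736 CPM with Tβ-MCA and at 711, 735 and 753 CPM with GCA. The Tβ-MCA samples spanned almost the same range as PBS, and their log2 difference was 0.00 (SE 0.059, 95% interval -0.12 to 0.13, adjusted p = 0.977 by edgeR). The partner subunits of the flavocytochrome had different estimates with Tβ-MCA, but the difference between them was not tested. Cyba was the subunit with the largest estimate between the conjugates of cholic acid, which is given with that comparison.

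Ncf1 encodes p47phox, the organizer that is phosphorylated on activation and then carries the cytosolic complex to the membrane. It lies on chromosome 5 from 134220053 to 134229625 on the minus strand with 3663 bp of exons. Ncf1 was at 2579, 2342 and 2295 CPM with PBS, at 2381, 2253 and 2238 CPM with TCA, at 1866, 1771 and 2079 CPM with Tβ-MCA and at 2348, 2030 and 2294 CPM with GCA. All 3 Tβ-MCA samples were below all 3 PBS samples, and replicate 5 was the nearest to them. Among all genes tested, 27.0% did not overlap between these groups, and 12.8% did not overlap and were lower. The mean fell from 2405 ± 152 to 1906 ± 158 CPM (SD, n = 3), a log2 fold change of -0.34 (SE 0.077, 95% interval -0.50 to -0.17), which is a level of 0.792 times that of PBS with an interval of 0.707 to 0.888 (adjusted p = 0.0251, edgeR's quasi-likelihood test). The direction was the same whichever PBS or Tβ-MCA sample was left out, with log2 fold changes of -0.40 to -0.28, but the call was lost in 5 of these 6 fits, all but the one without Tβ-MCA replicate 5, and the adjusted p ranged from 0.00236 to 0.13. It was also lost when only PBS and Tβ-MCA were fitted (adjusted p = 0.068).

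Exons of Ncf1 share 408 bp, or 11.1% of the Ncf1 exons, with Gtf2ird2, a gene for a transcription factor on the other strand, between 134221793 and 134223513. The library kit keeps the strand, but whether the counting used it is not stated in the sources used here, so reads of the shared bases cannot be told apart. Gtf2ird2 was at 467, 428 and 415 CPM with PBS and at 366, 300 and 356 CPM with Tβ-MCA. It fell as well, by 0.36 on the log2 scale (SE 0.089, adjusted p = 0.0303, edgeR), with no overlap between the groups, a call that was lost with limma on log2(RPKM + 1) (adjusted p = 0.0528). Its CPM was 17.0% to 19.6% of that of Ncf1 in every sample. The part of shared reads in either change was not tested.

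Ncf4 encodes p40phox, which binds the lipid phosphatidylinositol 3-phosphate on phagosomes. It lies on chromosome 15 from 78244801 to 78262580 on the plus strand with 2021 bp of exons and no overlapping gene. Ncf4 was at 379, 401 and 380 CPM with PBS, at 365, 373 and 375 CPM with TCA, at 378, 375 and 373 CPM with Tβ-MCA and at 372, 363 and 381 CPM with GCA. The Tβ-MCA samples and the TCA samples were each just below the lowest PBS sample, and those of GCA overlapped PBS. Of all genes, 12.8% were lower without overlap with Tβ-MCA and 4.76% with TCA. The log2 differences were -0.04 with Tβ-MCA (SE 0.053, 95% interval -0.16 to 0.07, adjusted p = 0.661) and -0.06 with TCA and GCA alike in edgeR's test, and each interval included 0. Scaled by total library size, the Tβ-MCA estimate was 0.00. Its spread over the 12 samples, 363 to 401 CPM, was the smallest of the 6 subunits in relation to its level.

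Rac1 and Rac2 are small GTPases that switch the assembled oxidase on when bound to GTP, and Rac2 is found mainly in blood cells. Rac1 lies on chromosome 5 from 143503634 to 143528036 on the minus strand with 4496 bp of exons, and Rac2 on chromosome 15 from 78559169 to 78572783 on the minus strand with 3036 bp of exons. Rac1 was at 154, 121 and 121 CPM with PBS, at 157, 124 and 120 CPM with TCA, at 164, 133 and 131 CPM with Tβ-MCA and at 152, 137 and 133 CPM with GCA. In each group 1 sample stood above the other 2, and it was the sample labelled number 3 in 4 of 4 groups, so that the number 3 samples were at 152 to 164 CPM and all others at 120 to 137 CPM. The difference from PBS with Tβ-MCA was 0.11 on the log2 scale (SE 0.124, 95% interval -0.16 to 0.38, adjusted p = 0.624, edgeR), which is the widest interval of the 6 subunits.

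Rac2 was at 258, 281 and 270 CPM with PBS, at 250, 259 and 261 CPM with TCA, at 259, 279 and 264 CPM with Tβ-MCA and at 257, 277 and 286 CPM with GCA. Here the sample labelled number 3 was the lowest in 4 of 4 groups, the opposite of Rac1, and the groups overlapped. The difference with Tβ-MCA was -0.02 on the log2 scale (SE 0.061, 95% interval -0.14 to 0.11, adjusted p = 0.911, edgeR). Cybb and Ncf1 were highest in the number 3 sample in 3 of 4 groups, with Tβ-MCA as the exception for both. The sources do not say what the replicate numbers stand for.

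Much of the Rac1 exon sequence also lies on another gene, as 2309 bp or 51.4% of it is shared with Daglb, a diacylglycerol lipase gene on the other strand, between 143503634 and 143505942. Daglb was at 44.2, 43.4 and 47.6 CPM with PBS and at 87.7, 77.4 and 57.4 CPM with Tβ-MCA, without overlap. It rose by 0.72 on the log2 scale (SE 0.133, adjusted p = 0.0208, edgeR). Reads of the shared exons cannot be assigned to 1 strand from the deposited counts, so the value of Rac1 with Tβ-MCA is uncertain to that extent. No gene overlaps Rac2.

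**Figure D2:**
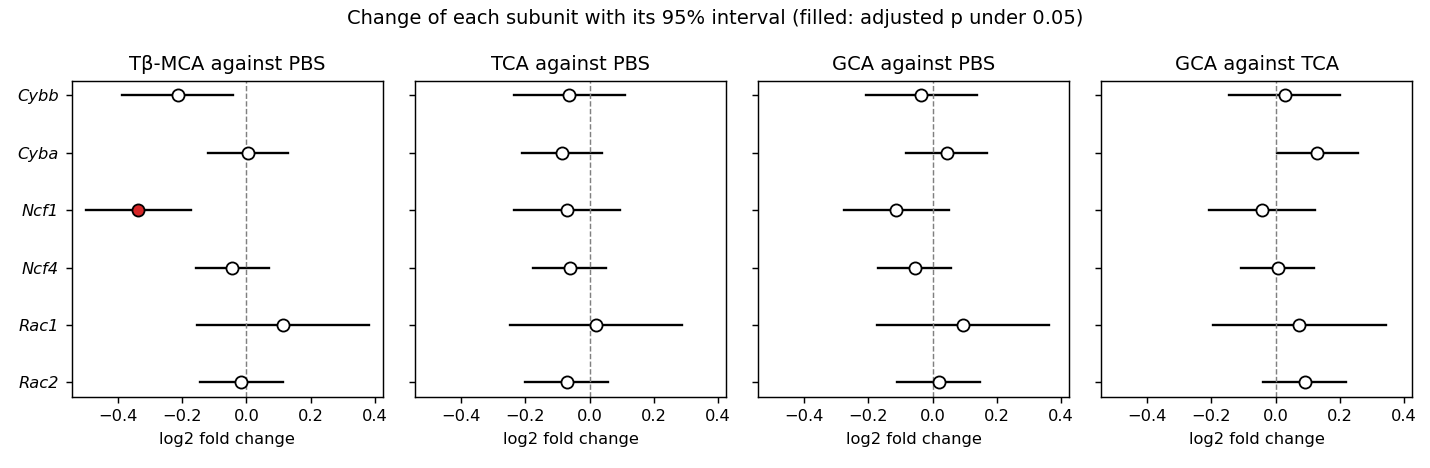
Log2 fold change of each subunit (x axis) in the 4 comparisons, with 95% intervals from edgeR's quasi-likelihood fit over all 12 samples; filled points have an adjusted p under 0.05. Ncf1 with Tβ-MCA, at -0.34, is the only filled point, and the intervals of Cybb with Tβ-MCA and of Cyba between GCA and TCA also exclude 0.

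The steroid part of TCA and GCA is the same, cholic acid, which is conjugated with taurine in TCA and with glycine in GCA, and both were given at 200 μM for 24 h. This single pair was compared directly, and 0% of all genes passed the adjustment, while 2.46% had an unadjusted p under 0.05. Cyba was higher with GCA, at 711 to 753 CPM, than with TCA, at 645 to 702 CPM, and the groups did not overlap, as was so with GCA higher for 3.81% of all genes. The log2 difference was 0.13 (SE 0.059, 95% interval 0.00 to 0.25), with an adjusted p = 1.0 in edgeR's test (0.044 before adjustment). For the other subunits the difference of GCA minus TCA was 0.03 for Cybb (95% interval -0.14 to 0.20), -0.04 for Ncf1 (-0.21 to 0.12), 0.01 for Ncf4 (-0.11 to 0.12), 0.07 for Rac1 (-0.19 to 0.34) and 0.09 for Rac2 (-0.04 to 0.22). These intervals leave room for differences of up to 0.12 to 0.34 on the log2 scale in 1 direction or the other.

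Against PBS, the log2 fold changes with TCA were -0.06 for Cybb, -0.09 for Cyba, -0.07 for Ncf1, -0.06 for Ncf4, 0.02 for Rac1 and -0.07 for Rac2. Those with GCA were -0.04, 0.04, -0.11, -0.06, 0.09 and 0.02 in the same order. The 95% interval of each of these 12 estimates included 0. Among the GCA samples, replicate 4 had the lowest Ncf1, 2030 CPM, which was below every PBS and TCA sample. The counts at an unadjusted p under 0.05 over all genes, 546 with TCA, 591 with GCA and 412 between them, stand beside counts of 0 with edgeR after adjustment, and DESeq2 called 1 gene with TCA and 0 in the other 2 comparisons.

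Levels of different genes were compared per length, as RPKM, reads scaled by the exon length of the gene and by the counted reads of the sample. With PBS the order was Cyba at 676 ± 20.4, Ncf1 at 649 ± 33.8, Ncf4 at 189 ± 6.80, Cybb at 189 ± 20.1, Rac2 at 87.9 ± 4.41 and Rac1 at 29.0 ± 3.89 RPKM (SD, n = 3). The ranges of Cyba and Ncf1 overlapped, and so did those of Ncf4 and Cybb, whereas every other step of this order was free of overlap. By mean RPKM over the 12 samples, Cyba was rank 55 and Ncf1 rank 63 of the 16761 genes tested, followed by Ncf4 at 271, Cybb at 279, Rac2 at 657 and Rac1 at 1903. How reads of shared exons were counted is not stated. The levels, ranks and ratios of Rac1 (51.4% of its exons shared) and Ncf1 (11.1%) are uncertain to that extent.

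With Tβ-MCA the neighbours in that order no longer overlapped. Cyba was at 685 to 718 RPKM and Ncf1 at 498 to 575 RPKM, and Ncf4 was at 187 to 191 RPKM and Cybb at 162 to 181 RPKM. With GCA, Cyba at 673 to 722 RPKM also stood above Ncf1 at 566 to 630 RPKM.

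The ratio of Ncf1 to Cyba within a sample, on the RPKM scale, was 1.0, 0.919 and 0.958 with PBS and 0.962, 0.990 and 0.958 with TCA. It was 0.759, 0.712 and 0.801 with Tβ-MCA and 0.937, 0.784 and 0.864 with GCA. The Tβ-MCA ratios lay below all those of PBS, while those of TCA and GCA each overlapped PBS. A ratio within a library does not depend on how the libraries are scaled to each other.

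Cyba to Cybb was 3.23, 3.93 and 3.61 with PBS against 4.22, 4.27 and 3.98 with Tβ-MCA, without overlap, while TCA gave 3.56, 3.48 and 3.50 and GCA 3.42, 3.88 and 4.04. Rac2 to Rac1 ranged from 2.34 to 3.45, and its lowest value in each group was that of the number 3 sample (2.48, 2.36, 2.34 and 2.5 with PBS, TCA, Tβ-MCA and GCA). Differences in these ratios were not tested. The lowest Tβ-MCA value of Cyba to Cybb, 3.98, was close to the highest PBS value, 3.93, and below the highest GCA value, 4.04.

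**Figure D3:**
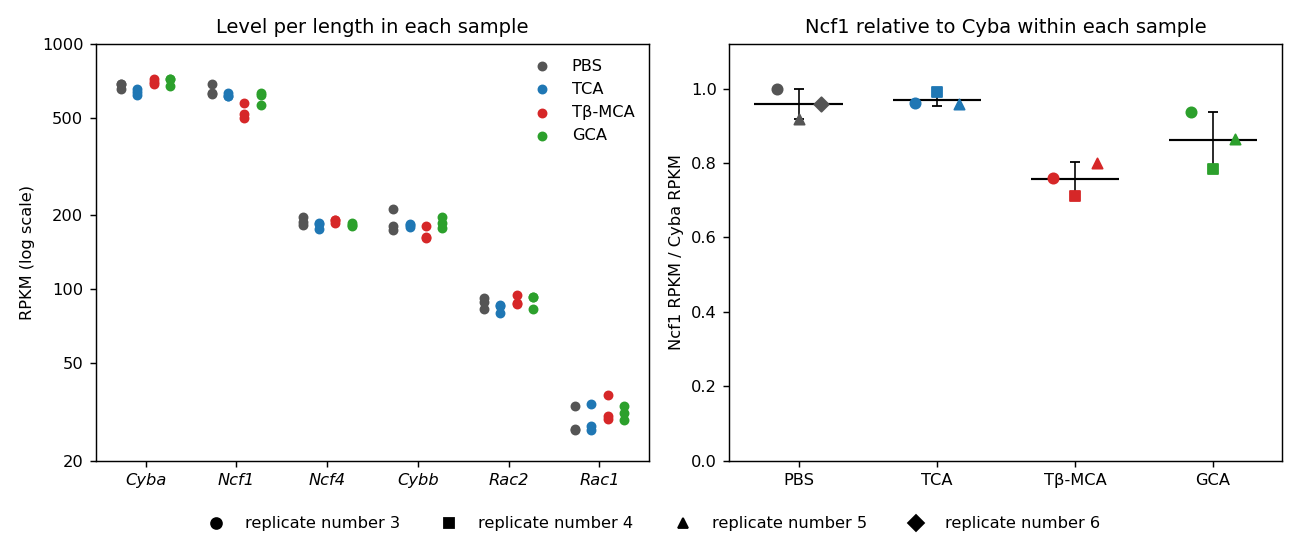
Left, RPKM of each subunit (log axis) in all 12 samples, colored by treatment; right, RPKM of Ncf1 divided by that of Cyba within each sample (linear axis from 0), with group means and SD (n = 3) and marker shapes for the replicate number. The Tβ-MCA ratios lie at 0.712 to 0.801, below the PBS ratios at 0.919 to 1.0.

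Over the 12 samples the log2 CPM of Cybb and Ncf1 had a Pearson correlation of 0.86, that of Rac1 and Rac2 -0.52 and that of Ncf1 and Cyba 0.03. These are descriptions, since the 12 points share treatments and libraries. Among 8074 other genes with a mean of at least 10 CPM, the gene most like Ncf1 was Camp, the cathelicidin of specific granules (r = 0.99), followed by Tm9sf3 (r = 0.99). Camp was at 716, 505 and 468 CPM with PBS, at 217, 198 and 350 CPM with Tβ-MCA, at 579, 434 and 455 CPM with TCA and at 543, 339 and 494 CPM with GCA, so it spanned a wider range than Ncf1. For Cybb the nearest genes were Cdc25a, a cell cycle phosphatase (r = 0.98), and Ikzf1, the lymphoid and myeloid factor Ikaros (r = 0.96).

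Rac1 was followed most closely by Brd3, a bromodomain protein (r = 0.98). Brd3 was at 315, 310, 332 and 301 CPM in the number 3 samples of PBS, TCA, Tβ-MCA and GCA and at 245 to 285 CPM in all others, the same split by replicate number as in Rac1. Because Brd3 was picked by its correlation with Rac1, this shared split is not independent support. For Rac2 the nearest were Acadvl, a mitochondrial acyl-CoA dehydrogenase (r = 0.93), and Slc2a6, a hexose transporter (r = 0.92). Among the nearest to Cyba was Tmem134 (r = 0.88), and the nearest to Ncf4 were Rpl19-ps11 (r = 0.87) and the lysosomal channel gene Tpcn2 (r = 0.86). These genes were less close to Cyba and Ncf4 than those named for the other 4 subunits were to theirs.

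Among markers of other cells, only 1 eosinophil gene and 1 B cell gene were called with Tβ-MCA, both lower. The summed markers of monocytes and macrophages, cells that also make the oxidase, were at 1496 to 1688 CPM with PBS. With Tβ-MCA replicates 3, 4 and 5 they were at 574, 778 and 1375 CPM. Beside these, TCA gave 1341 to 1719 CPM and GCA 1262 to 1644 CPM. With Tβ-MCA against PBS, 0 of the 12 genes passed the adjustment in edgeR. At an unadjusted p under 0.05, 6 passed, all 6 lower, beside 24.9% of all genes in either direction. Of the 12 neutrophil markers 4 fell, namely S100a8, Ly6g, Mmp9 and Camp, and 0 rose, beside 3.18% of all genes called lower, and the sum of the 12 was 30226 to 34874 CPM with Tβ-MCA against 37711 to 45562 CPM with PBS. The eosinophil markers summed to 53.2 to 122 CPM with Tβ-MCA against 136 to 237 CPM with PBS, and Siglecf, 1 of the 4, fell. Cd79a was the 1 of 5 B cell markers that fell, from 3.55 to 2.02 CPM in the mean. No marker of the other lists was called, and Klrb1c of the T and NK cell list was below 3 counts in every sample. The part of these cells in the values of Ncf1 and Cybb was not tested, and in such bulk samples fewer cells of a type cannot be told apart from less RNA per cell.

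The genes around the oxidase were described from 6 lists of 84 genes, of which 75 were tested. With Tβ-MCA, 4 rose and 1 fell, which is 6.67% of those tested against 7.62% of all genes. At an unadjusted p under 0.05, 36 passed, 12 higher and 24 lower, which is 48.0% against 24.9% of all genes. Leaving out Tβ-MCA replicate 5 raised the calls in these lists from 5 to 25, while leaving out any other PBS or Tβ-MCA sample left 0 or 1, the 1 without PBS replicate 6. The median log2 fold change of the 75 genes was -0.05 and that of all genes 0.00. With TCA, with GCA and between them 0 of the 75 were called by edgeR, and 1, 1 and 0 had an unadjusted p under 0.05.

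The first list held 16 other genes of the oxidase family and its accessories. Of these, 3 had no row, and 9 were tested, of which 2 rose and none fell with Tβ-MCA (median -0.08). Both are regulators of the enzyme rather than parts of its core.

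Hvcn1, the voltage-gated proton channel that balances the charge the oxidase moves, was at 198, 171 and 163 CPM with PBS and at 267, 238 and 191 CPM with Tβ-MCA. It rose by 0.39 on the log2 scale (SE 0.111, adjusted p = 0.0478, edgeR), although Tβ-MCA replicate 5 lay within the range of PBS, and the call was lost with limma on log2(RPKM + 1) (adjusted p = 0.0566). Nrros, whose product in the endoplasmic reticulum limits the amount of NOX2, was at 68.8, 83.3 and 81.3 CPM with PBS and at 112, 104 and 86.9 CPM with Tβ-MCA, without overlap. It rose by 0.38 (SE 0.094, adjusted p = 0.0299, edgeR), a call that was lost with the replicate number as a block (adjusted p = 0.0559). BC017643 (Cybc1 or Eros), a chaperone of the flavocytochrome, was at 45.1 to 50.4 CPM with PBS and at 43.7 to 45.2 CPM with Tβ-MCA, a log2 difference of -0.08 (SE 0.071, adjusted p = 0.512).

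Rap1a and Rap1b, GTPases that copurify with the flavocytochrome, differed by -0.19 (SE 0.067, adjusted p = 0.102) and -0.17 (SE 0.070, adjusted p = 0.149) in edgeR's test. Rac3, the third Rac gene, was below 0.45 CPM in every sample. Its log2 difference of 0.79 (SE 0.457, adjusted p = 0.304) rests on a few counts. Nox1 and Noxo1, parts of the oxidase of epithelial cells, were at most at 0.405 and 0.945 CPM.

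**Figure D4:**
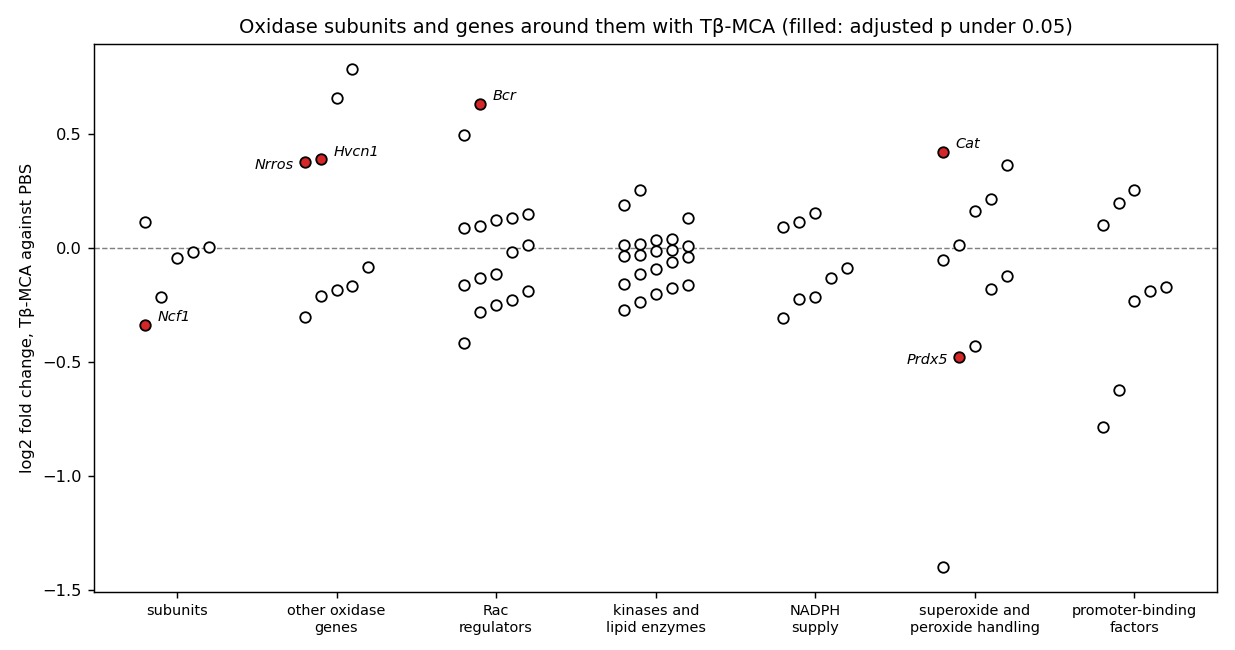
Log2 fold change with Tβ-MCA against PBS (y axis) of the 6 subunits and of the 75 tested genes of the 6 lists, one column for each list; points are spread sideways for visibility and filled where the adjusted p is under 0.05. The 6 filled points are Ncf1 and Prdx5 below 0 and Nrros, Hvcn1, Bcr and Cat above it.

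Among 17 regulators of Rac, 1 rose and none fell with Tβ-MCA (median -0.02, range -0.42 to 0.63). This was Bcr, which contains a domain that turns Rac off, at 20.3, 19.2 and 20.8 CPM with PBS and 37.2, 31.1 and 25.0 CPM with Tβ-MCA, without overlap. Its log2 fold change was 0.63 (SE 0.126, adjusted p = 0.0208, edgeR). None of 22 tested genes in the list of activating kinases and lipid enzymes passed the test (median -0.03, range -0.27 to 0.26). None of 8 genes of NADPH supply did (median -0.11, range -0.31 to 0.15).

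Of 11 tested genes that handle superoxide and peroxide, 1 rose and 1 fell (median -0.05). Prdx5, a peroxiredoxin, was at 985, 1012 and 965 CPM with PBS and at 629, 673 and 823 CPM with Tβ-MCA, and Cat, the catalase gene, was at 66.4, 65.7 and 67.9 CPM and at 93.5, 95.8 and 78.6 CPM. Neither overlapped between the groups. Prdx5 fell by 0.48 (SE 0.087, adjusted p = 0.0206) and Cat rose by 0.42 on the log2 scale (SE 0.089, adjusted p = 0.0211) in edgeR's test, so these 2 peroxide-removing enzymes moved in opposite directions. The lowest estimate of the list, chosen here after its values were seen, was that of Mpo, the myeloperoxidase that turns hydrogen peroxide into hypochlorous acid, with 209, 195 and 206 CPM with PBS and 32.3, 44.5 and 154 CPM with Tβ-MCA (log2 difference -1.40, SE 0.516, adjusted p = 0.137).

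Of 8 factors known to bind promoters of phagocyte oxidase genes, none was called (median -0.18, range -0.79 to 0.25). Spi1, which encodes PU.1, was at 493, 504 and 457 CPM with PBS and at 410, 414 and 466 CPM with Tβ-MCA, and Irf8, a factor of the interferon response element, was at 92.7, 82.4 and 79.8 CPM and at 38.9, 37.8 and 70.9 CPM. Spi1 overlapped between the groups, and Irf8 did not. Their log2 differences were -0.17 (SE 0.073, adjusted p = 0.152) and -0.79 (SE 0.218, adjusted p = 0.0568) in edgeR's test, and both were named here after their values were seen. In Irf8, as in Ncf1, Bcr, Prdx5 and Cat, replicate 5 was the Tβ-MCA sample nearest to PBS. In the fit restricted to PBS and Tβ-MCA no gene passed the adjustment, so the calls of Hvcn1, Nrros, Bcr, Prdx5, Cat, Gtf2ird2, Daglb and the marker genes were lost there, as was that of Ncf1; 3485 genes had an unadjusted p under 0.05 in it. Leaving out any PBS or Tβ-MCA sample other than Tβ-MCA replicate 5 also ended the calls of Hvcn1, Nrros, Bcr, Prdx5, Cat and Gtf2ird2, except that of Prdx5 without PBS replicate 6.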

How the data were processed

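Stranded mRNA libraries of 12 neutrophil samples in 4 groups were analysed. According to the submitters' processing notes and the methods, the authors trimmed reads with Trimmomatic 0.36 and used STAR 2.5.3a and featureCounts of Subread 1.5.1 with GRCm38 (mm10). The authors deposited raw counts per gene, together with RPKM values calculated from these counts. The deposited RPKM could be rebuilt from counts and exon lengths to within a relative difference of 1.3e-06. Genes with 2 counts outnumbered those with 1 count at least 2.93-fold in every sample, and the strand and pair settings of the counting are not given in the sources used here.

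Counts were scaled by TMM and tested with edgeR 4.0.16 (robust quasi-likelihood, filterByExpr by group, all 12 samples in 1 fit) in R 4.3.3, and p-values were adjusted by Benjamini-Hochberg over 16761 genes. Log2 CPM values used a prior count of 2. Alternatives were DESeq2 1.42.0, limma 3.58.1 on log2(RPKM + 1) and log2(RPKM + 0.1) for genes with a mean RPKM of at least 0.5, total library size, no filter, at least 10 counts in every sample, the replicate block, only the groups compared, and each sample left out. The test was also run on simulated counts drawn independently for each sample. That run cannot show how far the calls depend on single samples or replicate numbers. Named were all 6 subunits, up to 3 called genes with the lowest p per list and comparison, fixed oxidase genes, and the 2 genes most correlated with each subunit among those with at least 10 CPM. A few genes that this rule names are not reported here. The subunits, lists and tests were chosen with earlier results of these data known. Tables and plots were made in Python 3.11.15 (pandas 2.3.3, matplotlib 3.10.9).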

Additional observations from a re-analysis of the deposited data

How the results depend on the processing

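Ncf1 was lower with Tβ-MCA under every alternative tried. With only PBS and Tβ-MCA fitted, the calls fell to 0 subunits, 0 genes of the 6 lists and 0 of all genes, from 1, 5 and 1278, and with 1 sample left out they ranged from 0 to 2, 0 to 25 and 0 to 3076. The list genes called were 15 with DESeq2, 14 without a filter, 16 with the replicate block and 8 with limma on log2(RPKM + 1). All genes called with Tβ-MCA were 2079 with DESeq2, 2406 without a filter and 689 with limma on log2(RPKM + 0.1). Total library size gave 1013 higher and 395 lower, against 745 and 533 with TMM. All genes called with TCA were 1 with DESeq2, 37 without a filter and 3 with the replicate block, and without a filter 36 were called with GCA and 42 between GCA and TCA. The cause of these shifts was not tested. Same-numbered samples deviated together with a mean r of 0.19 over 15 pairs (0.06 to 0.33), against -0.07 over 39 other pairs (-0.27 to 0.15). The 2 ranges overlapped, and the highest value, 0.33, was that of the number 3 samples of PBS and TCA. The sources do not say what the numbers stand for, and the main fit left this shared deviation out. The replicate block, which models the numbers, kept Ncf1 called (adjusted p = 0.0152, edgeR) and ended the call of Nrros (adjusted p = 0.0559). Number 6 occurs only in PBS, so with the block the comparison rests on PBS replicates 3 and 5. That fit therefore does not show that the call holds over all PBS samples. Hvcn1 and Gtf2ird2 lost theirs with limma on log2(RPKM + 1) (adjusted p = 0.0566 and 0.0528) and log2(RPKM + 0.1) (0.0581 and 0.0549). None of the values that changed sign was called in the main analysis. With Tβ-MCA, Cyba was -0.0011 with DESeq2, -0.0023 with at least 10 counts in every sample and -0.017 with the replicate block. Ncf4 was 0.0039 and Rac2 0.032 with total library size, 0.0044 and 0.032 with limma on log2(RPKM + 1), and 0.0044 and 0.033 with a pseudocount of 0.1. Leaving out 1 sample moved Cyba from -0.028 to 0.025 and Rac2 from -0.047 to 0.014 with Tβ-MCA. With TCA it moved Cybb from -0.12 to 0.036, Rac1 from -0.11 to 0.15, Hvcn1 from -0.14 to 0.011 and Nrros from -0.025 to 0.11. With GCA it moved Cybb from -0.091 to 0.066 and Rac2 from -0.016 to 0.060. Between GCA and TCA it moved Cybb from -0.022 to 0.057, Ncf1 from -0.083 to 0.019, Ncf4 from -0.012 to 0.024, Gtf2ird2 from -0.087 to 0.049 and Cat from -0.0070 to 0.16.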
